A study of Mus musculus with 6 samples.

Results

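Colony-stimulating factors and related growth cytokines are secreted or membrane-bound proteins that keep leukocytes and their precursors alive and drive them to divide and mature. The genes were chosen by symbol, and all 10 of them were found among the 23282 genes of the table. They are Csf1 and Il34, which both act on the macrophage receptor CSF1R, Csf2, which encodes GM-CSF, Csf3, which encodes the neutrophil growth factor G-CSF, Kitl, which encodes stem cell factor, Flt3l, Il7, Il15, Tslp and Lif. In the liver, CSF1 sustains Kupffer cells. G-CSF drives neutrophils to mature and to be released, and IL-7 and IL-15 support lymphocytes and natural killer cells. Most of these cytokines signal through JAK kinases and STAT factors or through receptor tyrosine kinases, and several are made as membrane proteins that proteases shed.

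Primary hepatocytes from C57BL/6N mice were left to attach for 3 h. They then received fresh medium with recombinant IL-1β for 24 h (3 samples) or stayed untreated (control, 3 samples). For the controls the labels give no time beyond the 3 h of attachment. A difference in time in culture therefore cannot be told apart from IL-1β. The cells came from whole collagenase-digested liver that was minced and filtered, so other liver cells can remain among them, and the labels give neither the dose nor the sex and age of the mice. The series text speaks of 2 samples per group and lists 3, all of which were used. RNA was sequenced by QuantSeq, which reads the 3′ end of polyadenylated transcripts, so soluble and membrane forms of Csf1, Kitl and Flt3l were not told apart.

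Total counts were 10538667, 11105408 and 9566434 in the control libraries and 9538741, 10554243 and 11037083 in those treated with IL-1β. Levels are given as CPM, which are counts scaled to a common library total by the TMM method, with no division by gene length. At these depths 3 counts, taken as the limit that a count of 0 allows, correspond to between 0.268 and 0.320 CPM. That limit and the intervals given below cover counting error only. The labels do not say whether replicates came from separate cultures or animals, so p-values measure the spread between these samples. With 3 samples in each group, 0.1 is the smallest two-sided p that an exact permutation test can reach.

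IL-1β was followed by higher Csf3, Csf1 and Il7 and by lower Il34. Of the 10 genes, 7 had enough counts to be tested, 3 of those 7 were higher and 1 was lower after IL-1β at an adjusted p below 0.05, and 3 did not pass. Adjusted p-values come from the quasi-likelihood test of edgeR and were adjusted by the Benjamini-Hochberg method over all 11657 genes tested, of which 13.4% passed in either direction, 6.97% higher and 6.44% lower. The split of all passing genes was 812 higher against 751 lower (52.0% higher), and 39.7% were higher when libraries were scaled by total counts alone. The values of the 2 groups did not overlap in 6 of the 7 tested cytokine genes, against 28.2% of all genes tested. The median log2 fold change was 0.64 over the 7 tested cytokine genes and -0.002 over all genes tested. The former is the value of Lif, which did not pass and was at 0.39 without control 2. With 10 counts required in every sample, only Csf1, Kitl and Flt3l were tested, at 0.95, -0.66 and -0.31. Csf3 entered the test through its IL-1β libraries alone, since 0 control libraries and 3 IL-1β libraries reached the count filter, so its difference was bound to be found. Csf2, Il15 and Tslp stayed under the filter.

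**Figure D1:**
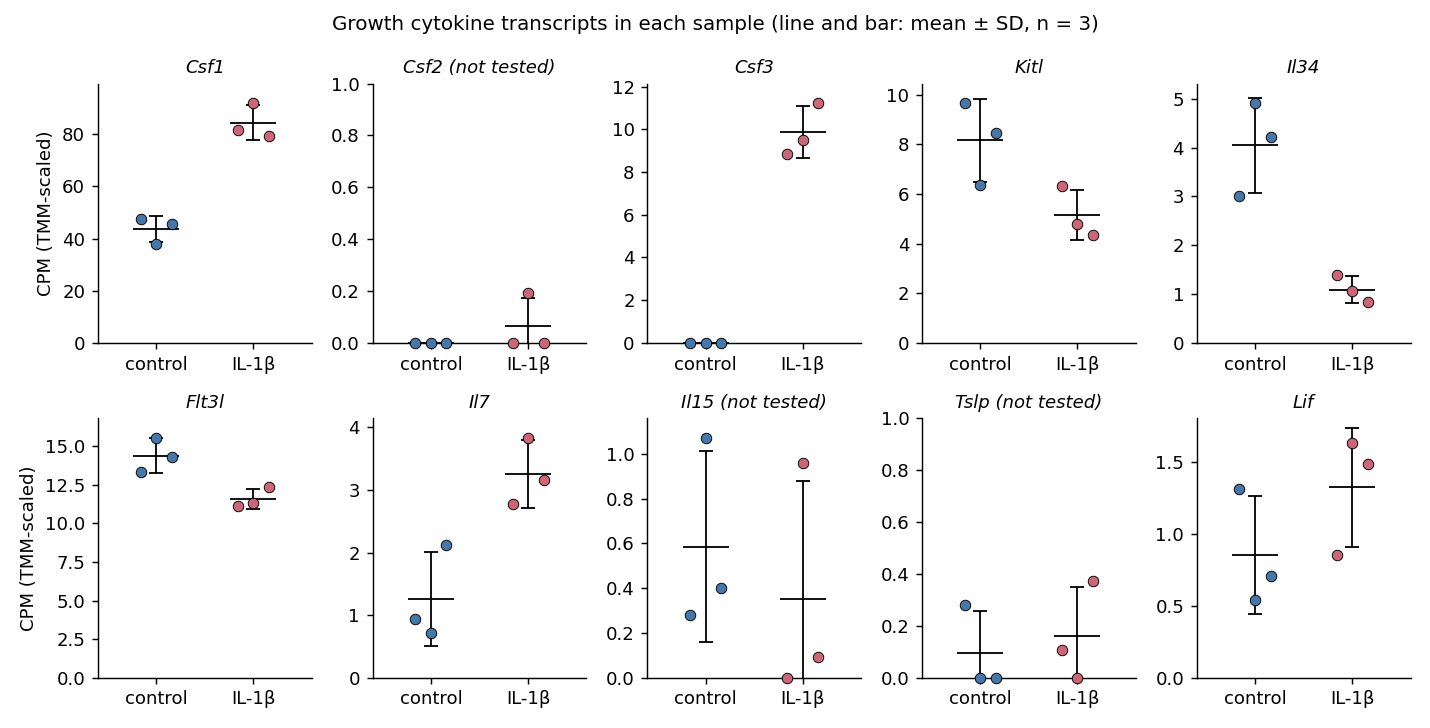
Level of each of the 10 growth cytokine transcripts in CPM (TMM-scaled) in the 3 control (blue) and 3 IL-1β (red) samples, with the group mean and SD in black; each panel has its own linear axis. Csf3 lies at 0 in all 3 controls and between 8.86 and 11.2 CPM after IL-1β, and the groups are also apart for Csf1, Il34, Il7, Kitl and Flt3l.

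Csf3, the gene for G-CSF, spans 98701313 to 98703629 on the plus strand of chromosome 11 (GRCm38). No read was counted on it in any control library, and the IL-1β libraries held 83, 99 and 121 counts, or 8.86, 9.50 and 11.2 CPM. All 3 IL-1β samples were thus far above the counting limit and all 3 controls were at or below it. The mean after IL-1β was 9.87 ± 1.23 CPM (SD, n = 3), which is at least 34.8-fold higher when each control library is set at 3 counts (edgeR adjusted p = 1.49e-10). With each sample left out in turn, this lower bound on the log2 scale stayed between 5.02 and 5.20. Csf3 was 1 of only 4 tested genes without a count in any control library. The others, picked out here after their values were seen, were S100a8, Il19 and the uncharacterised 6530402F18Rik, with means after IL-1β of 3.41, 2.95 and 4.998 CPM. Transcripts of the G-CSF receptor, Csf3r, were near 0 in both groups, with at most 3 counts in any library.

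Csf1 encodes macrophage colony-stimulating factor and lies on the minus strand of chromosome 3 from 107741048 to 107760469. It was measured at 47.6, 38.1 and 45.7 CPM in the controls and at 81.8, 92.0 and 79.4 CPM after IL-1β. Every IL-1β sample was well above every control, and the gap between the groups was wider than the spread within either. Means were 43.8 ± 5.02 and 84.4 ± 6.71 CPM (SD, n = 3), a 1.93-fold rise (log2 fold change 0.95, standard error 0.098, edgeR adjusted p = 7.25e-08). Csf1 passed the threshold with each sample left out and under every other setting tried.

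Il34 encodes the second ligand of CSF1R, which shares little sequence with CSF1, and lies on the minus strand of chromosome 8 from 110741829 to 110805924. Its counts were 32, 55 and 42 in the control libraries and 13, 11 and 9 in the IL-1β libraries, or 3.00, 4.92 and 4.23 CPM against 1.39, 1.06 and 0.836 CPM. The groups were apart, with IL-1β lower, although every library held few reads. Il34 fell 3.70-fold, from 4.05 ± 0.970 to 1.09 ± 0.278 CPM (SD, n = 3; log2 fold change -1.89, standard error 0.40, edgeR adjusted p = 0.00161). It passed with each sample left out, with an edgeR adjusted p of at most 0.0190. An unmoderated test on log2(CPM + 1) gave an adjusted p of 0.0600, the highest of the 8 other settings, whose lowest was 0.000158.

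The ligands of CSF1R thus moved in opposite directions. Il34 made up 5.94%, 11.4% and 8.47% of the summed Csf1 and Il34 counts in the controls, with exact 95% binomial intervals of 4.10% to 8.28%, 8.73% to 14.6% and 6.17% to 11.3%. After IL-1β it made up 1.67%, 1.13% and 1.04%, with intervals of 0.891% to 2.84%, 0.567% to 2.02% and 0.477% to 1.97%. No interval of an IL-1β sample reached that of a control (means 8.61% and 1.28%, exact permutation test, two-sided p = 0.1). Csf1 and Il34 together came to 47.8 ± 4.20 CPM in the controls and 85.5 ± 6.73 CPM after IL-1β (SD, n = 3). Csf1r, the receptor gene, was read at 3.85, 4.20 and 2.62 CPM in the controls and at 2.88, 6.24 and 5.39 CPM after IL-1β. Its groups overlapped (log2 fold change 0.44, standard error 0.33, edgeR adjusted p = 0.463).

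**Figure D2:**
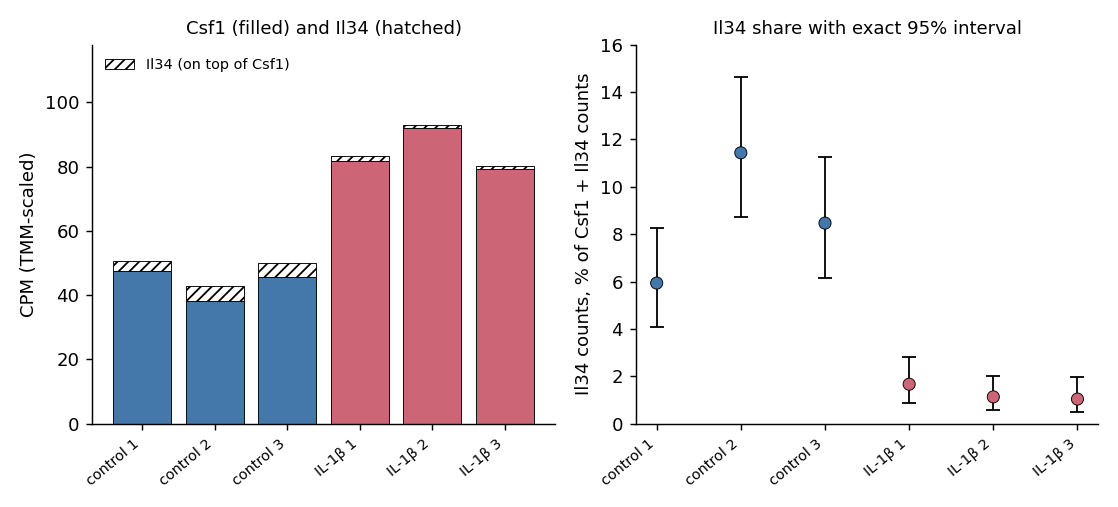
Left, CPM of Csf1 (filled) and Il34 (hatched, stacked on Csf1) in each sample; right, Il34 counts as a percentage of Csf1 plus Il34 counts, with exact 95% binomial intervals. The share of Il34 lies between 5.94% and 11.4% in the controls and between 1.04% and 1.67% after IL-1β, while the summed level is higher in all 3 IL-1β samples.

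Il7, which encodes a growth factor for B- and T-cell precursors, lies on the minus strand of chromosome 3 from 7572077 to 7613427. Its libraries held 10, 8 and 21 counts in the controls and 26, 40 and 34 after IL-1β, or 0.938, 0.715 and 2.11 CPM against 2.78, 3.84 and 3.16 CPM. The third control was above the other controls and still below the lowest IL-1β sample. Il7 rose 2.61-fold, from 1.26 ± 0.751 to 3.26 ± 0.538 CPM (SD, n = 3; log2 fold change 1.39, standard error 0.44, edgeR adjusted p = 0.0341). This call rested on most of the libraries. The edgeR adjusted p was 0.0944 without control 1, 0.165 without control 2, 0.0663 without IL-1β sample 1, 0.160 without IL-1β sample 2 and 0.0976 without IL-1β sample 3. Without control 3, the highest control, it was 0.0118 and the log2 fold change was 1.965. Over the 8 other settings the adjusted p ran from 0.0183 to 0.181, the latter from the unmoderated test on log2(CPM + 1).

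**Figure D3:**
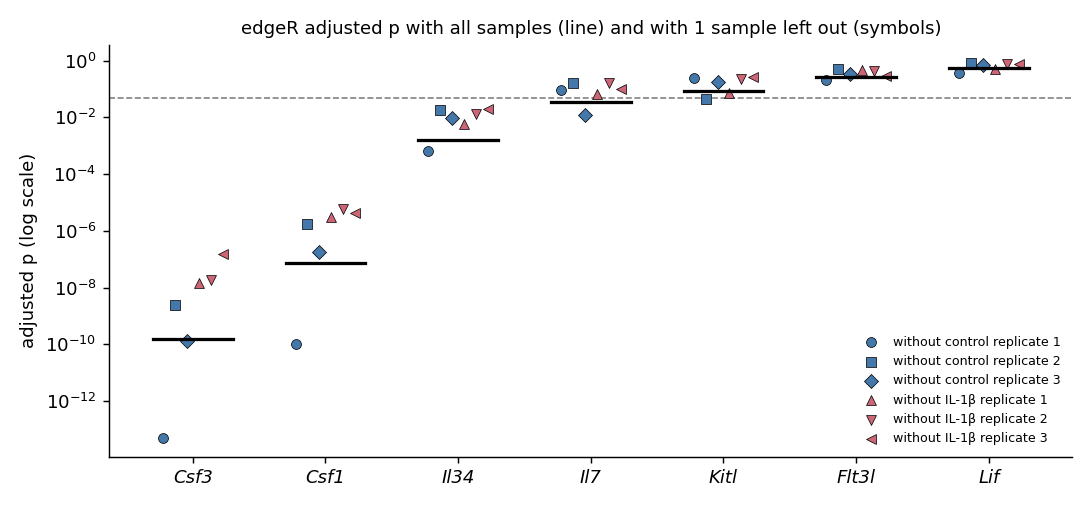
Adjusted p (edgeR, log axis) of the 7 tested growth cytokine genes with all samples (black line) and with 1 sample left out (symbols; blue, control; red, IL-1β); the dashed line marks 0.05. Csf3, Csf1 and Il34 stay below the line in all 6 cases, Il7 stays below it only without control 3, and Kitl falls below it only without control 2.

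Kitl and Flt3l encode ligands of the receptor tyrosine kinases KIT and FLT3, which act on stem and progenitor cells, mast cells and dendritic cells. Kitl (chromosome 10, 100015824 to 100100412, plus strand) was measured at 9.67, 6.35 and 8.45 CPM in the controls and at 6.30, 4.80 and 4.36 CPM after IL-1β. The lowest control and the highest IL-1β sample were almost level, with 71 and 59 counts. The log2 fold change was -0.66 (standard error 0.25) and did not pass the threshold (edgeR adjusted p = 0.0840). It passed without control 2, at an edgeR adjusted p of 0.0458, and with all samples the other 9 settings gave 0.0523 to 0.249.

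Flt3l (chromosome 7, 45131189 to 45136432, minus strand) was at 13.3, 15.6 and 14.3 CPM in the controls and at 11.1, 11.3 and 12.4 CPM after IL-1β. The groups did not overlap, by a gap of less than the SD of the controls. Means were 14.4 ± 1.12 and 11.6 ± 0.665 CPM (SD, n = 3), and the difference did not pass (log2 fold change -0.31, standard error 0.16, edgeR adjusted p = 0.264). Flt3l did not pass under any other setting or with any sample left out. Of their receptors, Kit was at 1.70 ± 0.254 CPM in the controls and 2.31 ± 1.16 CPM after IL-1β (SD, n = 3; edgeR adjusted p = 0.613), and Flt3 had 3 counts in control 3 and 0 in all the others.

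Lif, a cytokine of the IL-6 family that signals through LIFR and gp130, had 14, 6 and 7 counts in the controls and 8, 17 and 16 after IL-1β. The first sample of each group ran against the rest, and the groups overlapped (log2 fold change 0.64, standard error 0.54, edgeR adjusted p = 0.545). Il15 had 3, 12 and 4 counts in the controls and 0, 10 and 1 after IL-1β. In both groups the second sample held most of the reads, and the summed counts of 19 and 11 gave a ratio of 0.602 of IL-1β to control, with an exact 95% interval of 0.259 to 1.33. No difference in Il15 was therefore detected, and this interval does not cover the spread between samples. Tslp, an epithelial cytokine that acts on dendritic and lymphoid cells, had 3, 0 and 0 counts in the controls and 1, 0 and 4 after IL-1β. It overlaps a gene on the other strand, 4930455D15Rik, which held 1 count in all. Csf2 had no count in any control and 2 counts in the second IL-1β sample alone, so GM-CSF transcripts were at or under the counting limit in both groups.

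Summed over the 10 genes, the level was 76.4, 67.2 and 75.9 CPM in the controls and 113, 125 and 113 CPM after IL-1β. All IL-1β samples were above all controls, with a mean difference of 44.1 CPM (exact permutation test, two-sided p = 0.1). Counts of Csf1 made up 62.3%, 56.6% and 60.2% of the sum in the controls and 72.3%, 73.4% and 70.1% after IL-1β, and Csf3 made up 7.83%, 7.58% and 9.92% after IL-1β. Without Csf1 the sum was 29.4 ± 0.721 CPM in the controls and 32.9 ± 1.30 CPM after IL-1β (SD, n = 3). The difference of the sum was thus mostly that of Csf1, with Csf3 and Il7 added and Il34 lower. Kitl and Flt3l had lower means after IL-1β but did not pass.

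Of 16 receptor genes 12 were tested, 1 was higher (8.33%, against 6.97% of all genes tested), 1 was lower (8.33%, against 6.44%) and 10 did not pass, with a median log2 fold change of -0.04. Csf2ra, the ligand-binding chain of the GM-CSF receptor, was at 27.03, 36.2 and 42.8 CPM in the controls and at 41.3, 49.7 and 52.4 CPM after IL-1β. The highest control lay above the lowest IL-1β sample, and the log2 fold change was 0.44 (standard error 0.13, edgeR adjusted p = 0.0250). Without control 1 the log2 fold change of Csf2ra was 0.28. The edgeR adjusted p of Csf2ra was 0.116 without control 1, 0.0532 without control 2, 0.104 without IL-1β sample 2 and 0.161 without IL-1β sample 3, and the unmoderated test gave 0.364, the highest of 9 other settings (lowest 0.00131). Its partner chain Csf2rb and the related gene Csf2rb2 were at 3.80 and 2.11 CPM in the controls and at 2.60 and 1.10 CPM after IL-1β. Their edgeR adjusted p were 0.405 and 0.264.

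Lifr was at 34.9, 39.3 and 35.5 CPM in the controls and at 26.1, 21.9 and 29.99 CPM after IL-1β. Each IL-1β sample lay under the lowest control, and Lifr fell (log2 fold change -0.49, standard error 0.12, edgeR adjusted p = 0.00664). Without IL-1β sample 2 the edgeR adjusted p of Lifr was 0.0729, and the unmoderated test gave 0.169, the highest of 9 other settings (lowest 0.00113). Il6st, which encodes the shared chain gp130, was at 25.7 ± 1.63 and 28.8 ± 2.63 CPM (SD, n = 3) and did not pass (edgeR adjusted p = 0.474). Of the receptors of lymphoid cytokines, Il15ra, which presents IL-15 to neighbouring cells, was at 9.48 ± 1.03 CPM in the controls and 6.81 ± 1.89 CPM after IL-1β (SD, n = 3; edgeR adjusted p = 0.200). Crlf2, the TSLP receptor chain, was at 15.4 and 17.2 CPM (edgeR adjusted p = 0.590), Il7r at 1.83 and 1.01 CPM (0.461) and the common gamma chain Il2rg at 1.49 and 2.46 CPM (0.366). Il2rb, the other signalling chain for IL-15, had no count in any library. Of the further proteins that bind IL-34, the proteoglycan Sdc1 was at 69.1 and 58.9 CPM (edgeR adjusted p = 0.113, and 0.0392 with total-count scaling), and Ptprz1 had 2 counts in the first IL-1β sample and 0 elsewhere.

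Of 21 genes of receptor signalling 19 were tested, with a median log2 fold change of 0.08. Of the 19, 5 were higher (26.3%, against 6.97% of all genes tested) and 14 did not pass. Socs3, which blocks signalling from gp130 and the G-CSF receptor, was at 16.99, 18.2 and 21.2 CPM in the controls and at 57.2, 54.6 and 52.4 CPM after IL-1β. The groups were widely apart (log2 fold change 1.54, standard error 0.11, edgeR adjusted p = 1.31e-10). Socs1 rose from 1.11 ± 0.985 to 4.38 ± 1.84 CPM (SD, n = 3; log2 fold change 1.95, edgeR adjusted p = 0.00740), and Cish, which restrains STAT5, from 9.85 ± 2.76 to 15.2 ± 2.26 CPM (SD, n = 3; log2 fold change 0.63, edgeR adjusted p = 0.0325). The Src-family kinase Lyn and Stat3 rose less, with log2 fold changes of 0.51 and 0.37 (edgeR adjusted p = 3.08e-04 and 4.72e-04). Jak1, Jak2, Tyk2, Stat5a and Stat5b did not pass, at log2 fold changes of 0.07, 0.27, -0.06, 0.11 and -0.09, nor did the inhibitors Socs2, Pias3 and Ptpn6, with log2 fold changes of -0.33, -0.25 and -0.10 (edgeR adjusted p = 0.112, 0.555 and 0.900). These genes that did not pass are named after their values were seen.

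Without IL-1β sample 2, 3 of these 5 genes passed, with edgeR adjusted p of 0.111 for Socs1 and 0.169 for Cish. Cish also had an edgeR adjusted p of 0.101 without control 1, 0.118 without control 2 and 0.10 without IL-1β sample 1, and of 0.0503 with total-count scaling. Its values over the 9 other settings ran from 0.00882 to 0.278. The log2 fold change of Socs1 also depended on single samples, at 2.82 without control 1 and 1.48 without control 3. The unmoderated test left 2 of the 5 genes, Socs3 and Lyn.

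Among 26 other cytokines that act on blood cells, 8 were tested, with a median log2 fold change of 0.48. Of the 8, 2 were higher (25%, against 6.97% of all genes tested) and 6 did not pass. Il33, an alarmin stored in the nucleus, was at 1.31, 2.95 and 2.52 CPM in the controls and at 9.72, 11.8 and 8.73 CPM after IL-1β. Its groups did not overlap (log2 fold change 2.15, standard error 0.29, edgeR adjusted p = 4.45e-06). Vegfa rose from 44.4 ± 3.53 to 63.4 ± 7.65 CPM (SD, n = 3; log2 fold change 0.51, edgeR adjusted p = 8.20e-04). The unmoderated test gave adjusted p of 0.0503 for Il33 and 0.124 for Vegfa, the highest of 9 other settings for each, whose lowest were 3.41e-13 and 1.42e-05. Of the 26 genes, 12 had no count in any library, among them Il2, Il3, Il5, Epo and Osm.

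Membrane-bound CSF1 and FLT3 ligand are released by metalloproteases, of which ADAM17 is the main one. Of 7 genes of shedding and processing 6 were tested, with a median log2 fold change of 0.22. Of these, 1 was higher (16.7%, against 6.97% of all genes tested), 1 was lower (16.7%, against 6.44%) and 4 did not pass. Adam17 was at 89.3, 88.8 and 88.8 CPM in the controls and at 126, 136 and 115 CPM after IL-1β. The controls were nearly identical and all IL-1β samples lay above them (log2 fold change 0.50, standard error 0.079, edgeR adjusted p = 5.26e-05). Timp3, which encodes an inhibitor of ADAM17, was at 9.10, 12.1 and 10.4 CPM in the controls and at 2.56, 8.54 and 5.02 CPM after IL-1β. All IL-1β samples were below the controls, though they differed widely (log2 fold change -0.96, standard error 0.28, edgeR adjusted p = 0.0232). The log2 fold change of Timp3 was -1.45 without IL-1β sample 2 and -0.63 without IL-1β sample 1. Its edgeR adjusted p was 0.107 without control 2, 0.149 without IL-1β sample 1 and 0.118 without IL-1β sample 3. The unmoderated test gave 0.324, the highest of 9 other settings (lowest 5.92e-04).

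Transcripts of many growth cytokines carry AU-rich or stem-loop elements that set their decay. Of 14 genes of this control all were tested, with a median log2 fold change of 0.02. Of these, 2 were higher (14.3%, against 6.97% of all genes tested) and 12 did not pass. Zc3h12a, which encodes the RNase regnase-1, was at 9.85, 18.8 and 19.2 CPM in the controls and at 67.6, 68.4 and 65.9 CPM after IL-1β. The IL-1β samples were close together and far above the controls (log2 fold change 2.08, standard error 0.15, edgeR adjusted p = 1.16e-10). Mapkapk2, a kinase that acts on the decay factor tristetraprolin, rose by a log2 fold change of 0.32 (edgeR adjusted p = 0.00490), with 0.0837 from the unmoderated test, the highest of 9 other settings (lowest 0.00166).

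A further list held 23 genes of NF-κB, AP-1, C/EBP and related factors. Among the 23 are Nfkbia and Nfkbie, which encode inhibitors of NF-κB. Of the 23 genes, 21 were tested, with a median log2 fold change of 0.33. Of the 21, 10 were higher (47.6%, against 6.97% of all genes tested) and 11 did not pass. The smallest adjusted p belonged to Nfkbia, which encodes IκBα and rose from 269 ± 9.70 to 780 ± 39.2 CPM (SD, n = 3; log2 fold change 1.54, edgeR adjusted p = 3.25e-15). Cebpd rose from 44.7 ± 12.3 to 216 ± 14.6 CPM (SD, n = 3; log2 fold change 2.27, edgeR adjusted p = 2.34e-13). Nfkbiz, Cebpb, Nfkbie and Fosl2 rose with log2 fold changes of 0.95, 0.74, 0.99 and 0.56. The unmoderated test left 4 of the 10, with adjusted p of 0.140 for Cebpb and 0.0703 for Nfkbie, the highest of 9 other settings for each, whose lowest were 6.05e-17 and 1.48e-08. Nfkb1 passed with overlapping groups (adjusted p = 0.0288 by edgeR and 0.314 by DESeq2). The other NF-κB subunit genes Rela, Relb, Rel and Nfkb2 did not pass, at log2 fold changes of -0.0003, 0.28, 0.81 and 0.19. Nor did Jun, Jund, Fos and Fosl1, at -0.03, -0.03, 0.46 and -0.14. The genes from Nfkb1 to Fosl1 are named after their values were seen.

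**Figure D4:**
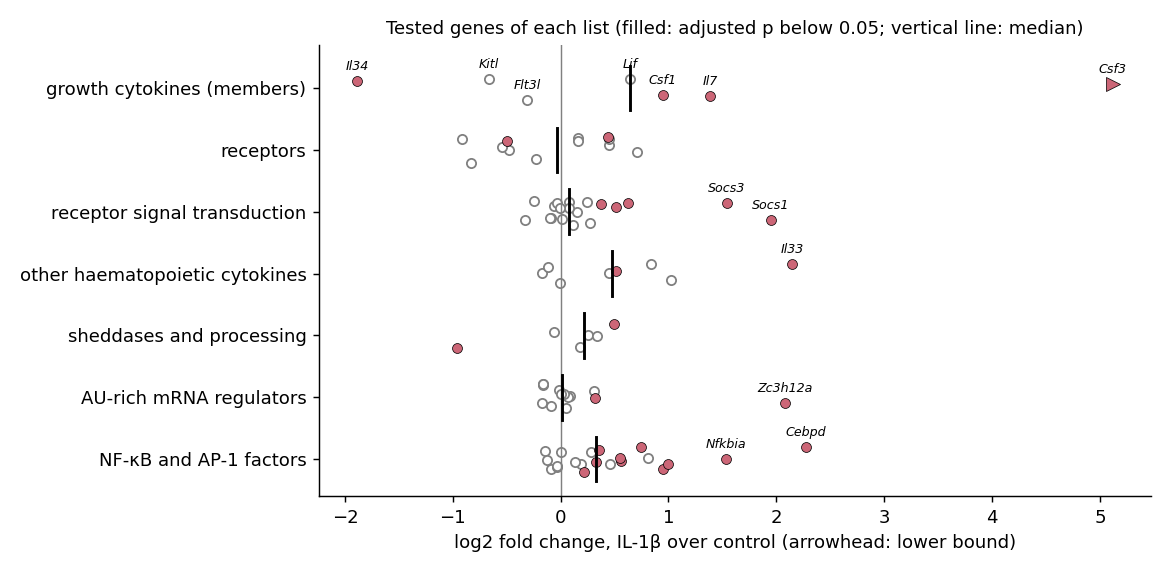
Log2 fold change (IL-1β over control) of every tested gene in the growth cytokine list and 6 related lists; filled points have an edgeR adjusted p below 0.05, the vertical line in each row is the median, and the arrowhead of Csf3 is a lower bound. Medians run from -0.04 for the receptors to 0.64 for the growth cytokines, where the median is the value of Lif, which did not pass and depended on single samples.

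RefSeq promoters (GRCm38.p6, 250 bases before to 50 after the start) were matched for 5 of the 10 genes, Csf1, Csf2, Kitl, Flt3l and Lif. They were searched on both strands for the NF-κB consensus, AP-1 (TGANTCA), STAT (TTCNNNGAA) and C/EBP (TTNNGNAA) letters, which are held by 8.46%, 7.81%, 8.30% and 40.7% of 32851 promoters of 300 bases. The NF-κB consensus was found in Csf1, Kitl and Lif, AP-1 letters in Lif and C/EBP letters in Csf2, with no overlap between matches, and Flt3l held none of the 4. In Csf1, which rose, the match lies 154 to 145 bases before the start used in the promoter table, and in Kitl, which did not pass, 152 to 143 bases before it. For Kitl that start differs from the one in the count table, 100015824, and the match lies inside the RefSeq gene span, which begins at 100015615. The 250 bases before the promoter table's start of both genes are shown because they carry the same consensus at nearly the same distance from it, in a gene that passed the test and in a gene that did not. Csf1 is read from the minus strand of chr3:107760470-107760719 and Kitl from the plus strand of chr10:100015571-100015820, 5′ to 3′, with the consensus in capitals.
Csf1: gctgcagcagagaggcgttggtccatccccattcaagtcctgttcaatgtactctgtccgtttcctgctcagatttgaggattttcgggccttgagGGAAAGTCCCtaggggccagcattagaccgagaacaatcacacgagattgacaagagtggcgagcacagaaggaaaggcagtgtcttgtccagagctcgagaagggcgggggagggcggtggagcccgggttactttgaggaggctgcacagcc
Kitl: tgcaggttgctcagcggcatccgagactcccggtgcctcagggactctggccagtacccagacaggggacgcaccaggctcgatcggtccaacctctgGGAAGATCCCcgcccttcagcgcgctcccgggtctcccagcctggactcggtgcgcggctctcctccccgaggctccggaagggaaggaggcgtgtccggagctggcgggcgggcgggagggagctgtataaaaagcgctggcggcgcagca
A match of letters describes the sequence and does not show that a factor binds there. The GC content of these stretches was 56.4% in Csf1 and 69.2% in Kitl.

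Other liver cells also make these cytokines, so markers of each were read in the same samples, and bulk samples cannot tell fewer cells of a type from less RNA per cell. The 17 hepatocyte markers in the table summed to 22924 ± 189 CPM in the controls and 18930 ± 502 CPM after IL-1β (SD, n = 3), led by Alb at 16183 and 14089 CPM. Of 15 tested hepatocyte markers 12 were lower (80%, against 6.44% of all genes tested) and 3 did not pass. Ahsg, Hnf4a and Asgr1 had log2 fold changes of -1.39, -1.04 and -0.55. The unmoderated test left 4 of the 12, these 3 among them. Alb had an adjusted p of 0.0113 by edgeR, 0.0883 by limma and 0.110 by the unmoderated test, and by edgeR 0.0744 without control 2 and 0.0894 without IL-1β sample 1. Apoa1, named after its values were seen, overlapped between the groups, with an adjusted p of 0.0413 by edgeR, 0.465 by DESeq2, 0.0604 by limma and 0.550 by the unmoderated test, and it lost the threshold without control 1 and without any 1 of the IL-1β samples. The summed hepatocyte level was lower in every IL-1β sample, while Csf3, Csf1 and Il7 were higher. The part of hepatocytes in the cytokine values was not tested.

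Endothelial cells are a known source of stem cell factor and of CSF1. The 13 endothelial markers summed to 95.4, 95.5 and 107 CPM in the controls and to 90.9, 85.3 and 92.7 CPM after IL-1β, lower in every IL-1β sample. Of 10 tested 4 were lower (40%, against 6.44% of all genes tested) and 1 was higher (10%, against 6.97%). Clec4g, Flt4 and Kdr had log2 fold changes of -2.87, -1.23 and -1.49 (edgeR adjusted p = 1.90e-05, 8.21e-04 and 0.00511), and Eng, the most abundant, was at 29.2 and 29.5 CPM. Clec4g did not pass the unmoderated test (adjusted p = 0.0507), and its log2 fold change was -3.49 without IL-1β sample 3. The other lower marker was Ptprb, with a log2 fold change of -0.95 (edgeR adjusted p = 0.0135, and 0.0804 without control 3, 0.0686 without IL-1β sample 2, 0.0537 without IL-1β sample 3 and 0.116 from the unmoderated test). The marker that was higher was Lyve1, with a log2 fold change of 0.45 (edgeR adjusted p = 0.0274). The edgeR adjusted p of Lyve1 was 0.0965 without control 1, 0.0807 without control 3, 0.137 without IL-1β sample 2 and 0.0851 without IL-1β sample 3, and 0.0158 to 0.195 over the other settings. Cdh5 and Stab1 did not pass, at log2 fold changes of 0.32 and 0.25, and Ptprb, Lyve1, Cdh5 and Stab1 are named after their values were seen. Endothelial markers thus differed in direction among themselves, and their part in the Il34 and Kitl values was not tested. The 14 stellate and fibroblast markers summed to 44.1 ± 1.70 and 46.5 ± 2.22 CPM (SD, n = 3), with overlapping groups and Sparc, the most abundant on average over both groups, at 19.9 and 20.2 CPM. Of these, 4 were tested and did not pass, and Lrat and Ngfr had at most 3 counts in any library.

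The 19 macrophage markers summed to 501 ± 63.9 CPM in the controls and 989 ± 37.6 CPM after IL-1β (SD, n = 3). Most of that difference was Cd14, which hepatocytes also make, at 230 and 718 CPM (log2 fold change 1.64, edgeR adjusted p = 1.60e-12). Without Cd14 the sums were 271 ± 16.8 and 270 ± 19.1 CPM (SD, n = 3) and overlapped. Most of these sums was Cd68, named after its values were seen, at 192 and 184 CPM. Of 13 tested, Cd14 alone passed (7.69% higher, against 6.97% of all genes tested). The median log2 fold change of the 13 was 0.31, and 9 of them were above 0. The recruited-monocyte marker Ccr2 was at 0 in every library and the Kupffer cell marker Timd4 had at most 3 counts. Among markers with too few counts to be tested, Itgam had 0, 1 and 0 counts in the controls and 6, 9 and 15 after IL-1β, higher in every IL-1β sample, and the Kupffer cell marker Clec4f had 4, 27 and 7 counts in the controls and 6, 0 and 9 after IL-1β. Both are named after their values were seen, and the part of macrophages in the cytokine values was not tested.

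The 12 neutrophil and mast cell markers summed to 1.41, 2.32 and 2.21 CPM in the controls and to 3.74, 7.39 and 7.99 CPM after IL-1β. Kit was the most abundant on average, and S100a8, at 0 in all controls, rose to 3.41 ± 1.35 CPM (SD, n = 3; at least 12.0-fold higher, edgeR adjusted p = 2.19e-06). Like Csf3, S100a8 entered the test through its IL-1β libraries alone, so its difference was bound to be found. S100a9, Mpo, Elane and Ngp were at 0 in every library. Of the others, Camp had no count in the controls and 1, 2 and 2 counts after IL-1β, and Cxcr2 had 0, 3 and 4 counts in the controls and 3, 2 and 5 after IL-1β. The part of neutrophils in the Csf3 values was not tested.

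The 10 cholangiocyte markers summed to 330 ± 7.87 and 244 ± 1.10 CPM (SD, n = 3). Spp1 was lower at a log2 fold change of -1.20 (edgeR adjusted p = 4.36e-12), and Sox9, the most abundant on average over both groups, was at 134 and 154 CPM. In the controls alone Spp1 was the most abundant, at 190 CPM. Prom1 was higher at a log2 fold change of 2.52 (edgeR adjusted p = 0.00915, and 0.0527 without control 1, 0.0687 without IL-1β sample 3 and 0.0530 from the unmoderated test, the highest of 8 other settings, whose lowest was 0.00914). Like Csf3, Prom1 entered the test through its IL-1β libraries alone, so its difference was bound to be found. Epcam and Krt7 had at most 3 counts in any library. The 15 lymphocyte and NK markers summed to 1.93 ± 1.38 and 1.31 ± 0.760 CPM (SD, n = 3), of which Il7r made up 1.83 and 1.01 CPM, and 10 of them, Cd3e included, were at 0. The 7 mesothelial markers summed to 0.0634 and 0.192 CPM, with Gpm6a the most abundant and Msln and Wt1 at 0. The part of these cells in the cytokine values was not tested.

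The genes whose levels followed each changed cytokine most closely were found by Pearson's r of log2(CPM + 1) over all 6 samples, both groups pooled, among genes with a mean of at least 10 CPM. For Csf1 they were Srf and Gnpnat1 (r = 0.997 for both), and for Csf3 Taldo1 and Hivep2 (r = 0.998 for both). For Il34 they were Mup14 (r = 0.992) and Def8 (r = 0.989), and for Il7 Pir and Rpl22l1 (r = 0.992 for both). The 6 samples fall into 2 groups, and these genes are given as a description.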

How the data were processed

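Raw read counts per gene were used as the authors deposited them, for 6 samples of QuantSeq 3′ mRNA-Seq (single-end reads). Per the labels, the authors aligned reads with Bowtie2 to mm10 (GRCm38) and used edgeR with TMM. The counting tool and the handling of reads matching several genes are not given in the sources used here. The authors' normalized log2 values, fold changes and p-values in the same table were not used. Groups came from the sample labels.

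In R 4.3.3, counts were filtered (filterByExpr), TMM-scaled and tested with the quasi-likelihood test of edgeR 4.0.16, with Benjamini-Hochberg adjustment over 11657 genes. The standard error is the log2 fold change divided by the square root of F. The procedure was tested on simulated data. Alternatives used DESeq2 1.42.0, limma 3.58.1, other scalings and filters, a replicate block and each sample left out. Motifs and figures were made in Python 3.11.15.

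The members and gene lists were chosen with earlier results of these data known. Named genes were all 10 members, up to 6 genes passing in each related list, every receptor, and of each marker list the most abundant gene and up to 3 passing. The 2 genes with the highest correlation to each passing member were added. Genes named outside this rule have few or no counts or are marked as named after their values were seen. Some listed marker genes are not reported by name.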

Additional observations from a re-analysis of the deposited data

How the results depend on the processing

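All 7 tested cytokine genes kept their direction under every scaling, filter and test that could be run on them and with each sample left out. The unmoderated test on log2(CPM + 1) called 547 genes in all, against 1563 by edgeR, and 0 cytokine genes lower (2 at an unadjusted p below 0.05), and the cause was not tested. Requiring 10 counts in every sample left 1 cytokine gene higher and 0 lower by edgeR (1 at an unadjusted p below 0.05), since Csf3, Il34, Il7 and Lif were then not tested. With each sample left out, 1 to 2 cytokine genes were lower (2 without control 2, when Kitl passed), 2 to 3 were higher, and 1131 to 1596 genes were called in all. At an adjusted p threshold of 0.1, 2 were lower, and at 0.01, 2 were higher. Omitting Rn45s from the totals, which raises every CPM, moved the difference of the summed level from 44.1 to 50.5 CPM. With a replicate block 1671 genes were called, and 3 cytokine genes were higher and 1 lower. Deviations of samples with the same replicate number correlated by -0.005 to 0.075, and 3 of 6 samples correlated best with their own number, so the numbers were not taken as pairs. Of 344 values for 39 other genes that the naming rule gives under other settings, 14 lost the threshold, 1 gained it and 0 reversed, and of 234 values with a sample left out, 15 lost it. Few reads were counted in any library for Csf2, Tslp, Il15 and Lif, and the part of depth in their lack of a call was not tested.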
